A study of Mus musculus with 15 samples.

Results

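Pkp2, Smim3, Kirrel2, Mthfd1l and Wipf3 are 5 genes of the mouse medial prefrontal cortex (mPFC) that were picked because their levels were higher after than before fear extinction in ABX-treated mice. They were 5 of 27179 gene identifiers in the table and 5 of 16816 genes with enough counts to be tested, and all 5 passed that filter on low counts. The data are bulk RNA sequencing of 15 libraries of dissected mPFC from C57BL/6J mice. In fear extinction an animal learns that a cue once paired with harm is safe, and the mPFC is a cortical region that takes part in it. ABX is the usual abbreviation in the field for an antibiotic mixture; the sources used here give neither its agents, dose and duration nor the age and sex of the mice. The ABX-treated mice gave 4 libraries sampled after extinction and 4 sampled before it, and the mice without ABX gave 4 after extinction and 3 before it (replicates 1, 3 and 4), which makes 4 groups. The labels name no genetic modification in any group. Because the 8 ABX libraries chose the genes, every value of the 5 genes that uses those libraries is a description without a test. The stated reason for picking them did not use the 7 non-ABX libraries, so the stage difference there was tested, although the genes were picked with earlier results of these data known and the fit takes its spread from all 15 libraries.

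The 5 genes belong to different pathways. Pkp2 encodes plakophilin 2, an armadillo-repeat protein of the desmosome, the cell junction that ties intermediate filaments to the membrane; it is best known from heart muscle, where mutations of the human gene cause arrhythmogenic cardiomyopathy. Smim3 encodes a small integral membrane protein about which little is known. Kirrel2 encodes an immunoglobulin-superfamily adhesion protein of the nephrin family, which in mice takes part in the sorting of olfactory axons. Mthfd1l encodes a mitochondrial enzyme of one-carbon metabolism that releases formate from a folate carrier. Wipf3 encodes a member of the WIP family of proteins, which bind actin and the WASP proteins that switch on actin branching. In bulk tissue, fewer cells of a type and less RNA per cell cannot be told apart.

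Total counts per library ran from 44254906 to 57929503, and libraries of a group varied with a biological coefficient of variation of 0.112. Levels are in CPM, a gene's count relative to the size of its library after scaling by TMM, a factor from edgeR, and differences are log2 fold changes from edgeR's quasi-likelihood fit to all 15 libraries. Where a p is given it is two-sided, and an adjusted p is adjusted by Benjamini and Hochberg over all 16816 genes. Markers of excitatory neurons matched the labelled tissue, with Slc17a7, a vesicular glutamate transporter, at 1177 to 1809 CPM. The summed CPM of 6 excitatory markers was 6508 to 7382 in post-extinction ABX, 5967 to 6871 in pre-extinction ABX, 6848 to 7693 in post-extinction non-ABX and 6478 to 7586 in pre-extinction non-ABX libraries. These sums overlapped between the stages in both arms, and their part in the stage differences was not tested. Summed CPM of 8 blood markers was low but uneven, at 1.01 to 11.2 in post-extinction ABX, 0.617 to 3.01 in pre-extinction ABX, 0.454 to 2.69 in post-extinction non-ABX and 0.483 to 0.761 in pre-extinction non-ABX libraries. Of these markers, Hba-a1 was at 0 in every library. In post-extinction ABX libraries S100a9 reached 3.62, Ngp 2.26 and S100a8 2.17 CPM. The globin genes Hba-a2 and Hbb-bs reached 1.19 and 0.0604 CPM there, so the sum is not a measure of globin RNA alone.

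All 5 genes are protein-coding and lie on different chromosomes. In GRCm38, Kirrel2 (Entrez 243911) is on chromosome 7 from 30447766 to 30457515, Mthfd1l (270685) on chromosome 10 from 3972892 to 4167081, and Wipf3 (330319) on chromosome 6 from 54429218 to 54503768. The promoters of Kirrel2, Mthfd1l and Wipf3, which differ in function, are shown to compare their sequence. No promoter sequence was at hand for Pkp2, and the setup of the search left out Smim3. All 5 genes had positive stage differences in both arms, so these differences did not set the 3 shown apart. Each runs from 250 bases before to 50 bases after 1 listed start of the gene in build GRCm38.p6, 5′ to 3′ on the strand of the gene: chr7:30457466-30457765 (minus strand), chr10:3972825-3973124 (plus strand) and chr6:54429436-54429735 (plus strand). The listed start matches the gene coordinates above for Kirrel2 only. In Mthfd1l and Wipf3 it lies further into the gene. The Mthfd1l window takes in the gene start at 3972892, and the Wipf3 window lies wholly past the gene start at 54429218. Capitals mark matches, on either strand, to the motifs searched.
Kirrel2: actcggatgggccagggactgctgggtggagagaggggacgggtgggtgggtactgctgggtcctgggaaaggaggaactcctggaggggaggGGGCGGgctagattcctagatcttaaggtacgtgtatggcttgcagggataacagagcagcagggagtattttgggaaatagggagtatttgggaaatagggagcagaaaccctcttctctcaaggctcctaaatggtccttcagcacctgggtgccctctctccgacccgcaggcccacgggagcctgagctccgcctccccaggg
Mthfd1l: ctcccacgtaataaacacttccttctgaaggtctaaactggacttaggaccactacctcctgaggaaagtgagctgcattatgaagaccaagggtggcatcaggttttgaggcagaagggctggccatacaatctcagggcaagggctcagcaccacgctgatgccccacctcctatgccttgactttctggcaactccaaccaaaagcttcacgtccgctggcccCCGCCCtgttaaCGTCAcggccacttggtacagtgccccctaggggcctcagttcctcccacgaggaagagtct
Wipf3: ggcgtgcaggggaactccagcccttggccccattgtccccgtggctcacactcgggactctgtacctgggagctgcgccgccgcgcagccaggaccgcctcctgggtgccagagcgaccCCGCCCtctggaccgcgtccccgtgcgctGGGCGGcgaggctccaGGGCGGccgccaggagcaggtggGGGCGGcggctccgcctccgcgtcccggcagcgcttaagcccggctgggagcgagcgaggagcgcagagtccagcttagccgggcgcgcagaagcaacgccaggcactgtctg
The GC box GGGCGG was found once in Kirrel2, once in Mthfd1l and 4 times in Wipf3; 35.7% of 32851 promoters of the same length hold it. Mthfd1l also held the cyclic AMP response element half-site TGACG, which stands in 20.8% of promoters. The full cyclic AMP response element TGACGTCA (1.79% of promoters), the E-box CACGTG (7.15%), the AP-1 element TGANTCA (7.81%) and the TATA box TATAAA (13.6%) had no match in the 3 windows. Nor did the glucocorticoid response element, AGAACA and TGTTCT parted by NNN (0.009%), or its half-site TGTTCT (19.0%); the half-site is contained in the full element, as TGACG is in TGACGTCA. The GC content of the windows was 59.7% in Kirrel2, 55.3% in Mthfd1l and 74.3% in Wipf3. These matches describe letters in the windows only.

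Pkp2 (Entrez 67451, GRCm38 chromosome 16, 16213345 to 16272712), the plakophilin, was high in 1 of the 4 groups. It had 8.96, 12.1, 11.6 and 11.1 CPM in post-extinction ABX libraries, against 4.80, 5.95, 6.70 and 6.09 CPM in pre-extinction ABX libraries. The post-extinction non-ABX libraries held 6.91, 6.73, 6.48 and 6.67 CPM, and the pre-extinction non-ABX libraries 5.88, 6.72 and 6.40 CPM. Every post-extinction ABX library was above every library of the other groups, whose values overlapped with each other. The stage difference in ABX mice, which chose the gene, was a log2 fold change of 0.90 (SE 0.11), or 1.86-fold. In non-ABX mice the stage difference was 0.08 (SE 0.12, 95% interval -0.17 to 0.33; edgeR adjusted p = 0.896). A difference of up to 0.33 thus lies within the interval for non-ABX mice. After extinction the difference between ABX and non-ABX was 0.71 (SE 0.11), and before extinction it was -0.10 (SE 0.12). Summed endothelial markers also separated the arms after extinction, at 153 to 215 CPM in ABX against 216 to 228 CPM in non-ABX libraries, lower where Pkp2 was higher. They separated the arms before extinction too, at 153 to 210 CPM in ABX against 222 to 246 CPM in non-ABX libraries, where the Pkp2 groups overlapped. Summed pericyte and smooth muscle markers were 115 to 148 CPM in ABX against 154 to 179 CPM in non-ABX libraries after extinction, and 118 to 162 CPM in ABX against 149 to 177 CPM in non-ABX libraries before it. The part of these markers in the Pkp2 difference was not tested. Between the stages in ABX mice the endothelial sums overlapped, at 153 to 215 CPM after and 153 to 210 CPM before extinction.

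Smim3 (Entrez 106878, GRCm38 chromosome 18, 60474191 to 60518949), the small membrane protein gene, was lowest in pre-extinction ABX mice and differed less between the other groups. It had 9.92, 10.4, 9.41 and 11.1 CPM in post-extinction ABX libraries, against 5.27, 5.43, 6.10 and 6.63 CPM in pre-extinction ABX libraries. In non-ABX mice it had 10.3, 9.23, 9.18 and 7.77 CPM after extinction, against 7.46, 8.22 and 7.10 CPM before. All 4 pre-extinction ABX libraries were below every other library. The stage difference that chose the gene was 0.80 (SE 0.10), or 1.74-fold. In non-ABX mice it was 0.26 (SE 0.11, 95% interval 0.03 to 0.49; edgeR adjusted p = 0.896), and the groups overlapped through post-extinction replicate 4. The ABX difference was 0.16 (SE 0.10) after extinction, with overlapping groups, and -0.37 (SE 0.11) before extinction, with groups that did not overlap. The endothelial sums did not overlap between the arms before extinction either, at 153 to 210 CPM in ABX against 222 to 246 CPM in non-ABX libraries, and their part in the Smim3 difference was not tested.

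Kirrel2, the adhesion gene, had higher means after than before extinction in both arms. It had 13.4, 15.7, 15.9 and 18.9 CPM in post-extinction ABX libraries, against 8.92, 8.42, 8.13 and 11.0 CPM in pre-extinction ABX libraries. Post-extinction non-ABX libraries had 18.1, 16.1, 16.8 and 12.7 CPM, against 10.6, 14.5 and 9.77 CPM in pre-extinction non-ABX libraries. The ABX groups did not overlap, while in non-ABX mice the highest library before extinction, replicate 3, was above the lowest after it, replicate 4. The difference used in choosing it was 0.81 (SE 0.15), or 1.75-fold, and the one in non-ABX mice was 0.45 (SE 0.16, 95% interval 0.12 to 0.79; edgeR adjusted p = 0.896). ABX and non-ABX differed by 0.00 (SE 0.14) after extinction and by -0.35 (SE 0.16) before it, with overlapping groups at both stages. The value before extinction was -0.16 without pre-extinction non-ABX replicate 3 and -0.13 with the GC trend removed.

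Mthfd1l, the mitochondrial formate-releasing enzyme, separated the stages in both arms. Its levels were 21.6, 23.8, 21.5 and 24.2 CPM in post-extinction ABX libraries, against 14.1, 16.5, 16.5 and 18.5 CPM in pre-extinction ABX libraries. The non-ABX levels were 21.0, 19.9, 21.7 and 20.6 CPM after extinction, against 15.7, 16.5 and 17.8 CPM before. In each arm the lowest library after extinction was above the highest before it. The stage difference in ABX mice was 0.47 (SE 0.08), or 1.39-fold. In non-ABX mice it was 0.32 (SE 0.09, 95% interval 0.14 to 0.51; edgeR adjusted p = 0.629), the smallest p of the 5 genes and still short of the threshold over all genes. The ABX difference was 0.13 (SE 0.08) after and -0.02 (SE 0.09) before extinction, and the groups overlapped at both stages.

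Wipf3, the WIP family gene, had the smallest stage difference of the 5 in ABX mice. It had 185, 201, 222 and 226 CPM in post-extinction ABX libraries, against 144, 147, 153 and 170 CPM in pre-extinction ABX libraries. Values in non-ABX mice were 182, 197, 190 and 189 CPM after extinction, against 162, 175 and 176 CPM before. The stages did not overlap in either arm. In ABX mice the difference was 0.44 (SE 0.07), or 1.36-fold, and in non-ABX mice 0.15 (SE 0.08, 95% interval -0.02 to 0.31; edgeR adjusted p = 0.896). With each library's trend on GC content removed, these became 0.30 in ABX and 0.06 in non-ABX mice, so the size of the Wipf3 difference depended on that correction. ABX and non-ABX differed by 0.14 (SE 0.07) after and -0.16 (SE 0.08) before extinction, which became 0.24 after and 0.00 before with the GC trend removed. Wipf3 overlaps the long non-coding gene 9130019P16Rik and the protein-coding gene Scrn1, whose reads cannot be separated where the library kit does not keep strand.

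**Figure D1:**
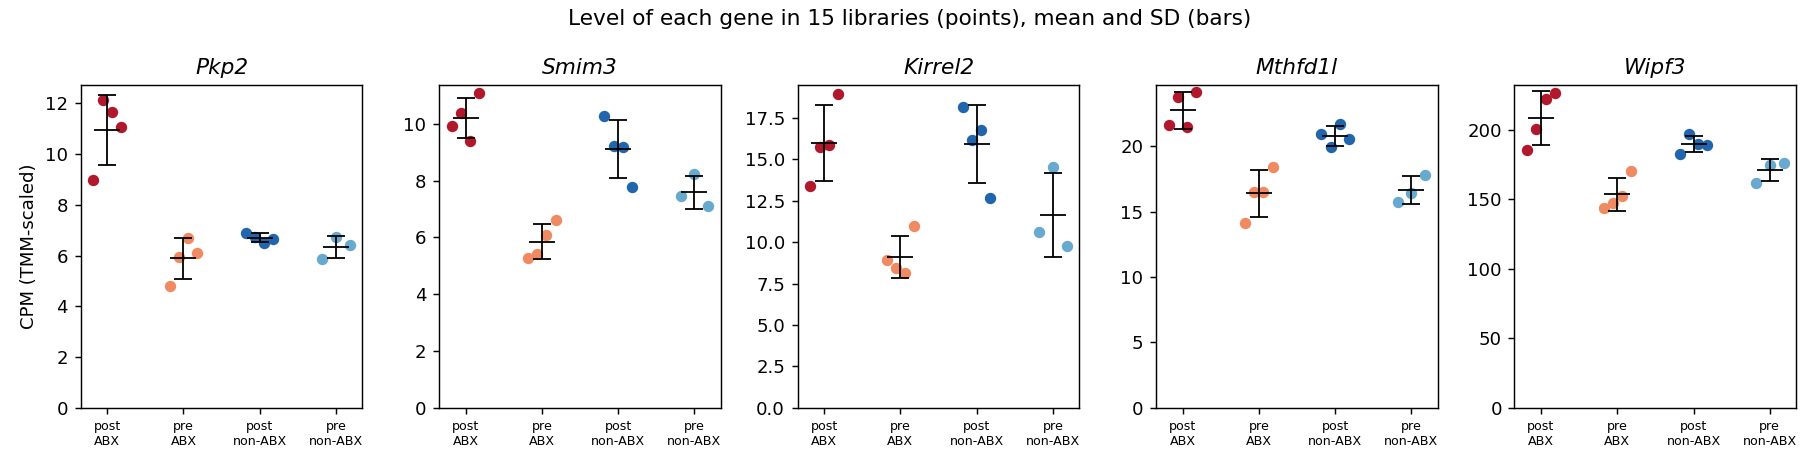
Level of each gene in CPM (vertical axes, from 0) in every library (points) of post- and pre-extinction ABX and post- and pre-extinction non-ABX mice, with the group mean and SD (black bars; n = 4, 4, 4 and 3). Pkp2 stands out in post-extinction ABX libraries at 8.96 to 12.1 CPM, while Kirrel2 reaches 13.4 to 18.9 CPM in ABX and 12.7 to 18.1 CPM in non-ABX libraries after extinction.

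The 5 genes thus fell into distinct patterns across the 4 groups. Group means of Pkp2 were 11.0 ± 1.39 CPM in post-extinction ABX, 5.89 ± 0.793 in pre-extinction ABX, 6.70 ± 0.174 in post-extinction non-ABX (SD, n = 4 each) and 6.33 ± 0.425 in pre-extinction non-ABX (SD, n = 3). Kirrel2 averaged 16.0 ± 2.28 CPM in post-extinction ABX, 9.11 ± 1.28 in pre-extinction ABX, 15.9 ± 2.33 in post-extinction non-ABX (SD, n = 4 each) and 11.6 ± 2.53 in pre-extinction non-ABX (SD, n = 3). Pkp2 was highest by its post-extinction ABX mean, while Kirrel2 had close means after extinction in both arms. All 5 had non-overlapping stages in ABX mice, as the choice of genes would give; 2.69% of all genes tested were higher after extinction with no overlap there. They ranked 66 (Pkp2), 92 (Kirrel2), 97 (Smim3), 490 (Mthfd1l) and 595 (Wipf3) among 16816 genes ordered from the largest positive stage difference in ABX mice, so the set reaches well below the top of that order.

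In non-ABX mice, 5 of 5 genes had a positive stage difference, against 49.1% of all genes tested, and their median was 0.26, against 0.00 for all genes. None of the 5 passed the adjusted threshold of 0.05 in edgeR, and 0 of 16816 genes did (percent called higher 0), although 830 genes had an unadjusted p under 0.05. At that unadjusted level 3 of the 5 were higher, Smim3, Kirrel2 and Mthfd1l, against 1.51% of all genes. Groups did not overlap for 2 of the 5, Mthfd1l and Wipf3, against 2.33% of all genes. The tool changed the calls: limma voom with sample quality weights gave adjusted p of 0.0230 for Smim3, 0.00586 for Kirrel2, 0.00403 for Mthfd1l and 0.0236 for Wipf3, and called 11.5% of all genes higher. Pkp2 passed in neither. DESeq2 called 0.0119% of all genes higher and none of the 5.

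**Figure D2:**
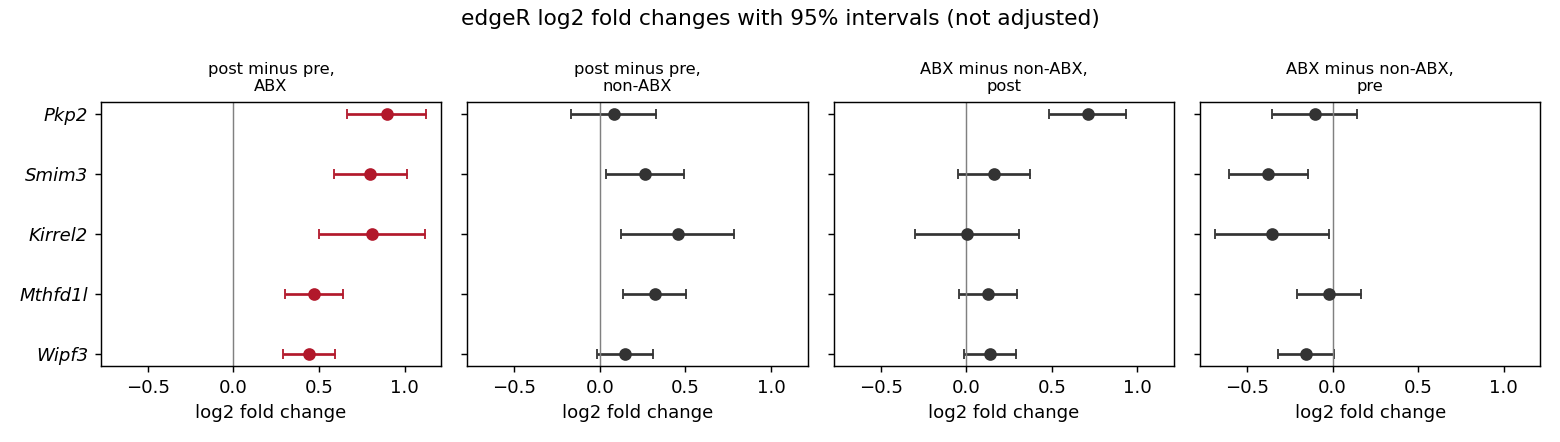
edgeR log2 fold changes (horizontal axes, points) with unadjusted 95% intervals (bars) of the 5 genes in 4 comparisons, each over its own panel. The red panel is the difference that chose the genes (0.44 to 0.90); in non-ABX mice the same difference was 0.08 for Pkp2 and 0.45 for Kirrel2, and after extinction Pkp2 had the highest ABX difference of the 5, at 0.71.

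The stage difference was larger in ABX than in non-ABX mice for each of the 5, by 0.81 (SE 0.16) for Pkp2, 0.54 (SE 0.15) for Smim3, 0.36 (SE 0.21) for Kirrel2, 0.29 (SE 0.10) for Wipf3 and 0.15 (SE 0.12) for Mthfd1l; 53.7% of all genes had a positive value of this kind. The value was 0.17 for Kirrel2 without pre-extinction non-ABX replicate 3. For Mthfd1l it was 0.08 without pre-extinction ABX replicate 1, 0.10 without pre-extinction non-ABX replicate 4, 0.09 without the 3 blood-rich libraries and 0.07 in voom. These differences contain the ABX stage difference that chose the genes, and so carry no test; over all genes 0 passed the edgeR test of this difference, with 346 at an unadjusted p under 0.05, and 4 passed in DESeq2. After extinction, when 51.6% of all genes had a positive ABX difference, it was positive for Pkp2, Smim3, Mthfd1l and Wipf3, while that of Kirrel2 was near 0 and ran from -0.09 to 0.08 with a library left out. Groups did not overlap for 1 of the 5, Pkp2, against 4.74% of all genes, and the Smim3 difference was 0.09 without post-extinction non-ABX replicate 4. Before extinction, when 51.5% of all genes had a positive ABX difference, the sign held under every alternative run for Smim3 and Kirrel2 only. Mthfd1l ran from -0.08 to 0.05 with a library left out (0.05 without pre-extinction ABX replicate 1), Pkp2 was -0.01 without pre-extinction ABX replicate 1 and 0.00 in voom, and Wipf3 was 0.00 with the GC trend removed. Groups did not overlap for 1 of the 5, Smim3, against 3.14% of all genes. Both of these comparisons share libraries with the stage difference that chose the genes.

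**Figure D3:**
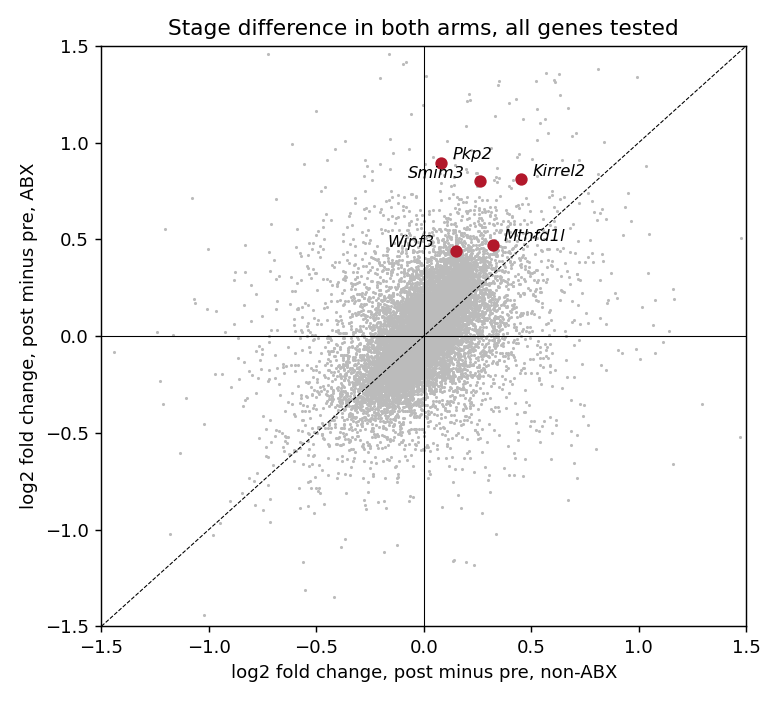
Stage difference (post minus pre, log2 fold change) in ABX mice (vertical) against non-ABX mice (horizontal) for 16816 genes (grey) and the 5 genes (red); 13 genes lie outside the axes, which end at 1.5, and the dashed line marks equal differences. All 5 lie above the dashed line, Mthfd1l nearest to it (0.47 in ABX, 0.32 in non-ABX) and Pkp2 farthest (0.90 and 0.08).

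Replicates within a group differed in similar ways for several of the genes. Among post-extinction ABX libraries, replicate 4 was the highest for Smim3, Kirrel2, Mthfd1l and Wipf3, and replicate 1 was the lowest for Pkp2, Kirrel2 and Wipf3. Among pre-extinction ABX libraries, replicate 4 was again the highest for the same 4 genes, and replicate 1 was the lowest for Pkp2, Smim3, Mthfd1l and Wipf3. Post-extinction ABX replicate 1 was also the library with the highest blood sum (11.2 CPM), and pre-extinction ABX replicate 1 had the highest of its group (3.01 CPM). Without the 3 libraries with the highest sums of these markers, which also include post-extinction non-ABX replicate 2, the stage difference in ABX mice was 0.90 for Pkp2, 0.77 for Smim3, 0.88 for Kirrel2, 0.43 for Mthfd1l and 0.46 for Wipf3. Each of these is close to its value over all libraries. Replicate 4 also had the highest excitatory sum of its group, at 7382 CPM in post-extinction and 6871 CPM in pre-extinction ABX libraries. Its endothelial sums were the highest too, at 215 and 210 CPM. Pre-extinction ABX replicate 1 had the highest sum of 6 astrocyte markers, at 7869 CPM, against 5763 to 6420 CPM in the rest of its group. The part of these markers in the replicate differences was not tested.

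Levels per length, in CPM per kb of the longest transcript, set Wipf3 apart from the rest. In post-extinction ABX libraries Wipf3 had 46.2 ± 4.28, Mthfd1l 6.17 ± 0.386, Kirrel2 4.10 ± 0.585, Pkp2 3.74 ± 0.476 and Smim3 2.03 ± 0.142 CPM per kb (SD, n = 4). Kirrel2 and Pkp2 did not differ there beyond their spread. Among post-extinction non-ABX libraries Kirrel2, at 4.08 ± 0.598 CPM per kb, was above Pkp2, at 2.28 ± 0.0593 CPM per kb.

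Tested relatives of the 5 genes had stage differences from -0.12 to 0.57 in ABX mice. Pkp4, a plakophilin relative found at adherens junctions, was far more abundant per length (52.2 ± 1.86 CPM per kb in post-extinction ABX, SD, n = 4) and had stage differences of -0.02 (SE 0.06) in ABX and -0.04 (SE 0.06) in non-ABX mice. Pkp1, a plakophilin of skin, was low at 0.288 to 0.484 CPM in post-extinction ABX libraries, with differences of -0.05 (SE 0.29) in ABX and -0.02 (SE 0.32) in non-ABX mice. Pkp3 had 42 counts in all and was not tested. With its low level and an SE of 0.29, a small stage difference of Pkp1 in ABX mice is not resolved. Pkp2 had a higher estimate there than Pkp4 and Pkp1, as its choice by this difference would give. Its direct partners Dsp, Jup and Dsg2 were singled out with their values known. Dsp, the desmoplakin that anchors filaments, was at 0.144 to 0.222 CPM in post-extinction ABX, 0.133 to 0.192 in pre-extinction ABX, 0.126 to 0.208 in post-extinction non-ABX and 0.247 to 0.431 in pre-extinction non-ABX libraries. Dsp's stage difference was 0.19 (SE 0.29) in ABX and -1.07 (SE 0.27) in non-ABX mice, where the edgeR adjusted p was 0.575. Dsp had 155 counts in all, so both of its differences rest on few counts per library. Jup, plakoglobin, had 0.21 (SE 0.19) in ABX and 0.10 (SE 0.21) in non-ABX mice. The desmosomal cadherin Dsg2 had -0.16 (SE 0.16) in ABX and -0.10 (SE 0.18) in non-ABX mice.

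Among the adhesion relatives of Kirrel2, Nphs1, which encodes nephrin of the kidney slit diaphragm and begins 692 bases from Kirrel2 on chromosome 7, had the largest difference. It had 2.79, 3.15, 3.49 and 3.81 CPM in post-extinction ABX libraries, against 2.12, 2.14, 2.13 and 2.50 CPM in pre-extinction ABX libraries. The groups did not overlap, and the stage difference was 0.57 (SE 0.12, edgeR adjusted p = 0.071), short of the threshold. In non-ABX mice it was 0.27 (SE 0.13, edgeR adjusted p = 0.896). Kirrel, the Kirrel1 gene, had 0.01 (SE 0.09) in ABX and 0.02 (SE 0.10) in non-ABX mice, and Kirrel3, a synaptic adhesion gene, 0.11 (SE 0.08) in ABX and 0.19 (SE 0.09) in non-ABX mice. Neither passed the edgeR threshold in either arm. Mthfd1, the cytosolic counterpart of Mthfd1l, had 0.00 (SE 0.07) in ABX and 0.01 (SE 0.07) in non-ABX mice. Of the mitochondrial enzymes, Mthfd2 had -0.03 (SE 0.09) and Mthfd2l 0.16 (SE 0.09) in ABX mice. Of the WIP family, Wipf1 had -0.12 (SE 0.08) and Wipf2 0.18 (SE 0.06, edgeR adjusted p = 0.179) in ABX mice; Wipf2 had 127 to 134 CPM after against 109 to 121 CPM before extinction, with no overlap.

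**Figure D4:**
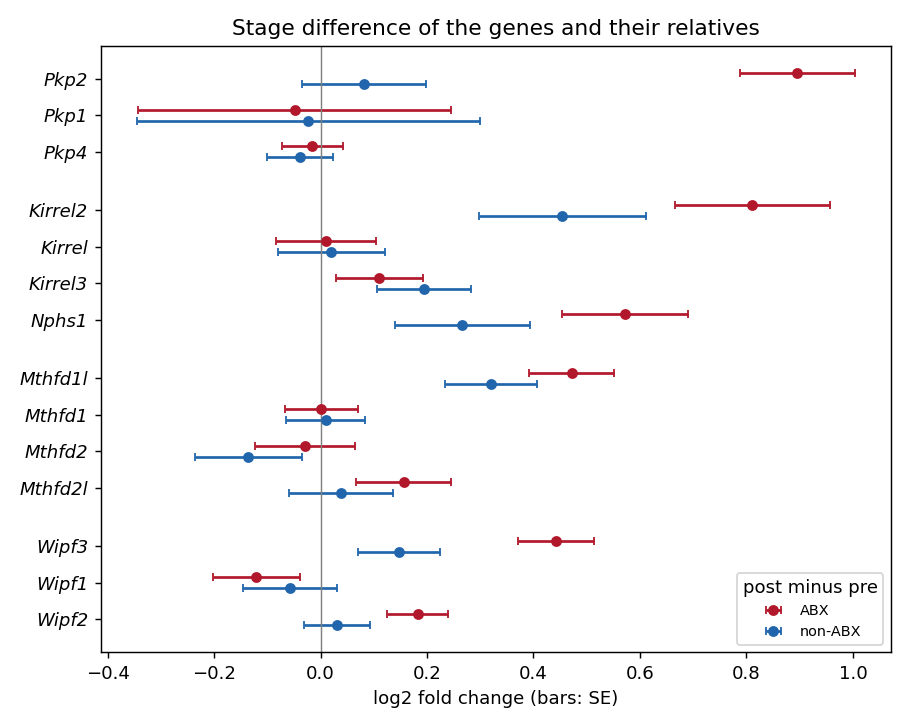
Stage difference (post minus pre, log2 fold change on the horizontal axis; bars are SE) in ABX (red) and non-ABX (blue) mice for 4 of the genes and their tested relatives, grouped by family. Pkp2 stands at 0.90 in ABX mice while Pkp4 is at -0.02, and Nphs1 at 0.57 follows Kirrel2 at 0.81.

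Wider lists of genes from each pathway showed no call. In ABX mice 13 of 19 tested genes of the desmosome and plakophilin list had a positive stage difference, with a median of 0.06, against 51.0% positive and a median of 0.01 over all genes. For the nephrin and Kirrel adhesion list it was 8 of 17 (median -0.03), for the folate and one-carbon list 22 of 37 (median 0.03) and for the WASP, WAVE and Arp2/3 list 16 of 32 (median 0.00). None of the genes of these 4 lists passed the edgeR threshold in either arm, where 0.0951% of all genes did in ABX mice and 0 in non-ABX mice. The 2 genes of smallest p in each list included Nphs1 and Wipf2, described above. The others were Ctnnd1, the p120 catenin (-0.20, SE 0.06, edgeR adjusted p = 0.165), Ctnna2, an alpha catenin of neurons (-0.11, SE 0.06), Magi2, a nephrin-binding scaffold (-0.19, SE 0.06), Aldh1l2, a mitochondrial folate dehydrogenase (-0.32, SE 0.11), Folr1, a folate receptor (0.72, SE 0.29), and Trip10, a Cdc42 effector (0.37, SE 0.16). None of these values passed. Folr1 was low, with 215 counts in all. Its levels were 0.206 to 0.468 CPM after and 0.127 to 0.265 CPM before extinction in ABX mice. In non-ABX mice they were 0.321 to 0.421 CPM after and 0.198 to 0.276 CPM before. Folr1 is also 1 of the 8 summed markers of the choroid plexus. Their sum was 17.7 CPM in post-extinction ABX replicate 1, where Ttr had 11.3 CPM. The other post-extinction ABX libraries had 4.40 to 6.31 CPM, and the pre-extinction ABX libraries 3.65 to 6.11 CPM. The part of these markers in the Folr1 value was not tested.

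Of 19 glucocorticoid-induced genes, 12 had a positive stage difference in ABX mice (median 0.25) and 3 passed the edgeR test as higher, against 0.0773% of all genes. The list was chosen with earlier results of these data known, so this count is a description and no test of the list. Plin4, a lipid droplet protein gene, had 7.66, 11.0, 16.2 and 26.5 CPM in post-extinction ABX libraries, against 2.04, 1.74, 2.75 and 5.14 CPM in pre-extinction ABX libraries (log2 fold change 2.39, SE 0.35, edgeR adjusted p = 0.0161). Hif3a, a hypoxia-inducible factor subunit, rose by 1.22 (SE 0.19, edgeR adjusted p = 0.0183), and Fkbp5, a co-chaperone of the glucocorticoid receptor, by 0.78 (SE 0.13, edgeR adjusted p = 0.0329). Over 24 alternatives the log2 fold change ran from 1.99 to 2.82 for Plin4, 1.04 to 1.46 for Hif3a and 0.70 to 0.95 for Fkbp5. The adjusted p stayed under 0.05 in 19 of the 24 for Plin4, 17 for Hif3a and 13 for Fkbp5. The edgeR, DESeq2 or limma adjusted p ranged from 3.3e-06 to 0.0862 for Plin4, 3.6e-07 to 0.0953 for Hif3a and 5.0e-05 to 0.146 for Fkbp5. The 3 calls were all lost with only the compared groups in the fit, where the edgeR adjusted p was 0.0805 for Plin4, 0.0805 for Hif3a and 0.146 for Fkbp5, and without the 3 blood-rich libraries, at 0.0533 for Plin4, 0.0778 for Hif3a and 0.0881 for Fkbp5. Leaving out single libraries also lost them: Plin4 without pre-extinction ABX replicate 1, 2 or 3 (edgeR adjusted p 0.0633, 0.0666 and 0.0862), Hif3a without pre-extinction ABX replicate 1 or 3 (0.0633 and 0.0953) or post-extinction ABX replicate 2, 3 or 4 (0.0632, 0.0594 and 0.0939). Fkbp5 was lost without pre-extinction ABX replicate 1, 2 or 3 (edgeR adjusted p 0.0941, 0.0896 and 0.138), post-extinction ABX replicate 2, 3 or 4 (0.0918, 0.120 and 0.135), replicate 1 of pre-extinction non-ABX (0.0636), or replicate 2 or 3 of post-extinction non-ABX (0.0548 and 0.0608). In non-ABX mice 8 of 19 were positive and 0 were called. There Plin4 averaged 8.12 ± 1.39 CPM after extinction (SD, n = 4) against 4.12 ± 0.343 CPM before it (SD, n = 3). Fkbp5 had 38.9 to 47.2 CPM after against 36.6 to 37.8 CPM before. The stages of Plin4 and Fkbp5 thus did not overlap in non-ABX mice either. Those of Hif3a did, at 13.6 to 20.6 CPM after and 14.1 to 14.9 CPM before. Of 28 activity-regulated immediate early genes, 9 were positive in ABX mice (median -0.23) and none passed, Fosl2, an AP-1 subunit, having the smallest p (-0.50, SE 0.09, edgeR adjusted p = 0.052). In non-ABX mice 2 of these 28 genes were positive (median -0.23) and none passed.

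The genes whose profile over the 15 libraries was most like each of the 5 were found by the root mean square difference between log2 CPM profiles, each standardised to mean 0 and SD 1; the median over 13462 candidate genes was 1.36 to 1.38. These profiles include the libraries that chose the 5, so they are given as a description. For Pkp2 the nearest were Cry1, a circadian clock repressor (0.490), Rasgef1a, an exchange factor for Ras-family proteins (0.491), Myo1h, an unconventional myosin (0.496), Smoc2, a matrix protein (0.521), and Fkbp5 (0.534). Smim3 was nearest to Tef, a clock-controlled transcription factor (0.271), and Per3, a period gene of the clock (0.407). Kirrel2 was nearest to Evc2, a primary cilium protein (0.275), and Zbtb7c, a zinc-finger protein (0.282). Mthfd1l was nearest to Smpdl3b, a membrane-bound phosphodiesterase (0.359), and Tef (0.372), and Wipf3 to Per3 (0.216) and Plin4 (0.232). Pkp2 thus had no gene as near to it as the other 4 had. Cry1 had 20.4, 19.6, 18.7 and 19.7 CPM in post-extinction ABX libraries, against 13.1, 14.3, 16.6 and 16.8 CPM in pre-extinction ABX libraries. Tef had 530, 531, 522 and 557 CPM in post-extinction ABX libraries, against 406, 408, 411 and 450 CPM in pre-extinction ABX libraries. Neither gene's stages overlapped in ABX mice, and both genes were picked by a likeness that uses these libraries. In non-ABX mice Tef had 488 to 530 CPM after extinction against 427 to 470 CPM before, with no overlap. The stages of Cry1 overlapped there, with the lowest library after extinction at 15.2 CPM and the highest before it at 15.6 CPM. Between members, the profiles of Smim3 and Kirrel2 were nearest (0.353) and those of Pkp2 and Kirrel2 farthest apart (0.847).

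**Figure D5:**
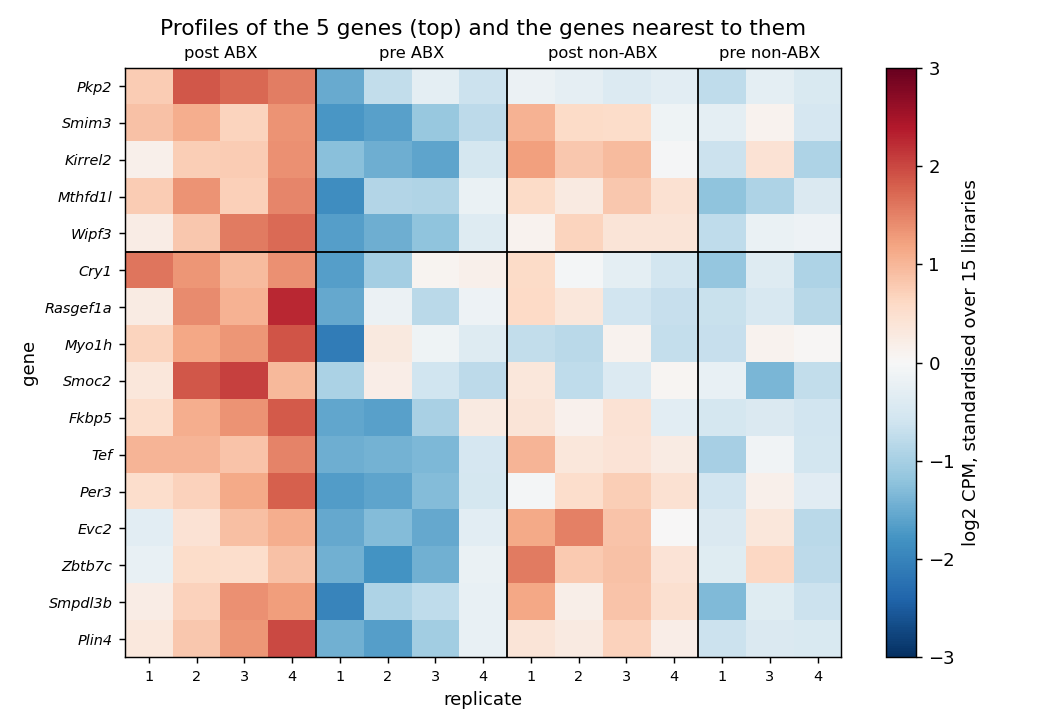
Log2 CPM standardised over the 15 libraries (colour; red above and blue below a gene's mean) for the 5 genes (above the line) and the genes nearest to them (below it), with replicates as columns grouped by post- and pre-extinction ABX and post- and pre-extinction non-ABX. The rows of the 5 genes are red in post-extinction ABX and blue in pre-extinction ABX libraries, and the Pkp2 row is blue in the 7 non-ABX libraries as well.

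Neighbouring genes had stage differences from -0.18 to 0.57 in ABX mice, Nphs1 having the highest. Beside Pkp2, Spidr had -0.07 (SE 0.15) and Yars2 -0.11 (SE 0.08), and beside Smim3, Iigp1 had 0.10 (SE 0.32) and Dctn4 -0.05 (SE 0.06). Aplp1, 2184 bases from Kirrel2 on the side away from Nphs1, had 0.25 (SE 0.13). Beside Mthfd1l, Plekhg1 had 0.30 (SE 0.11) and Akap12 -0.18 (SE 0.08), and Scrn1, which overlaps Wipf3, had -0.13 (SE 0.08). The other gene that overlaps Wipf3, 9130019P16Rik, had 0.39 (SE 0.38), with 0.383 to 1.00 CPM in post-extinction ABX and 0.376 to 0.625 CPM in pre-extinction ABX libraries. None of these neighbours passed the edgeR threshold.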

How the data were processed

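The authors deposited unnormalized counts, 1 column for each of the 15 libraries and 1 row per Entrez identifier, and all columns were used. The submitters' processing notes name STAR 2.3.0, CASAVA 1.8.2 and mm10; the counting program and annotation were not given in the sources used here. SMARTer Ultra Low Input V4, the kit named in the labels, does not keep strand, and its text speaks of sorted cells although the source is dissected tissue. Of 27179 identifiers, 25275 were matched to a symbol, holding 99.7% of counts. The labels do not say if a library is 1 animal, so a p-value covers only variation among the libraries sequenced. Groups followed the labels, which hold no replicate 2 for pre-extinction non-ABX mice.

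In R 4.3.3, edgeR 4.0.16 was used with filterByExpr (minimum count 10, minimum total 15), TMM factors of 0.969 to 1.03 and a quasi-likelihood fit with 4 group means and no covariate. Standard errors are the fold change over the square root of F. Intervals are at 95%. Alternatives were limma 3.58.1 voom with quality weights, DESeq2 1.42.0, RLE scaling, other filters, the replicate block, the compared groups alone, a GC spline with 5 degrees of freedom (91.2% of tested genes had a value), omission of the 3 blood-rich libraries and of each library. Likeness used log2 CPM with a prior count of 2 and genes averaging at least 1 CPM.

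The 5 genes, the lists, the tests and the naming rule were chosen with earlier results of these data known. The rule took the 5 genes and their relatives, the called genes of each list or otherwise its 2 of smallest p in the ABX stage difference, and the 5 nearest profiles to Pkp2 and 2 nearest to each other gene. The scripts were tested on simulated data. No pair of libraries of a group differed by as little as counting noise.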

Additional observations from a re-analysis of the deposited data

Results flagged for a closer look

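In 48 sets of 4 libraries, each 1 gene in 1 group, the highest or lowest value was compared with its nearest neighbour; by chance about 1 in 20 such sets is flagged, and 3 were. None was from the 5 genes. Kirrel in pre-extinction ABX mice had 9.16, 9.18, 9.31 and 11.2 CPM in order of level, and the gap of the highest library was 0.929 of the whole range. In post-extinction non-ABX mice Kirrel had 9.43, 9.45, 9.50 and 10.02 CPM, with a gap of 0.888 of the range. Nphs1 in pre-extinction ABX mice had 2.12, 2.13, 2.14 and 2.50 CPM, with a gap of 0.954 of the range.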

How the results depend on the processing

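Of the 5 genes tested in non-ABX mice, none changed direction in any of the 24 alternatives, and voom with quality weights moved 4 past the threshold, at 0.29 for Smim3, 0.60 for Kirrel2, 0.38 for Mthfd1l and 0.19 for Wipf3; the cause was not tested. Leaving out single libraries gave 0.04 to 0.13 for Pkp2, 0.20 to 0.33 for Smim3, 0.36 to 0.65 for Kirrel2, 0.29 to 0.38 for Mthfd1l and 0.12 to 0.18 for Wipf3. In ABX mice it gave 0.81 to 0.98 for Pkp2, 0.76 to 0.87 for Smim3, 0.72 to 0.91 for Kirrel2, 0.41 to 0.53 for Mthfd1l and 0.40 to 0.50 for Wipf3. For the difference between the stage differences it gave 0.72 to 0.90 for Pkp2, 0.47 to 0.60 for Smim3, 0.17 to 0.46 for Kirrel2, 0.08 to 0.21 for Mthfd1l and 0.25 to 0.35 for Wipf3. The other alternatives reached lower for Kirrel2 and Wipf3 in ABX mice. There they gave 0.89 to 0.90 for Pkp2, 0.77 to 0.82 for Smim3, 0.65 to 0.89 for Kirrel2, 0.42 to 0.47 for Mthfd1l and 0.30 to 0.49 for Wipf3.

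Counts of called genes moved more, for causes that were not tested. For the stage in non-ABX mice (0 genes) they were 2 without a filter, 2 with the GC trend removed, 19 in DESeq2, 3191 in voom and 0 to 1 with a library left out (1 without replicate 3 of pre-extinction non-ABX or replicate 4 of post-extinction non-ABX). For the stage in ABX mice (16 genes) they were 77 with the GC trend removed, 5 with only the 2 groups compared, 282 in DESeq2, 465 in voom and 2 without the blood-rich libraries. With a library left out they ran from 3 to 237: 237 without pre-extinction ABX replicate 4, 43 without post-extinction ABX replicate 1, 10 without replicate 1 of pre-extinction non-ABX, or replicate 2 or 3 of post-extinction non-ABX, 5 without post-extinction ABX replicate 2 or 3, 4 without pre-extinction ABX replicate 2 or 3 or post-extinction ABX replicate 4, and 3 without pre-extinction ABX replicate 1. For ABX after extinction (3 genes) they were 59 with the GC trend removed, 32 with 2 groups, 182 in DESeq2, 306 in voom, 1 without the blood-rich libraries and 0 to 13 with a library left out (13 without pre-extinction ABX replicate 4, 6 without post-extinction ABX replicate 1, 5 without pre-extinction ABX replicate 2, and 0 without post-extinction ABX replicate 2, 3 or 4, replicate 1 or 4 of pre-extinction non-ABX or any library of post-extinction non-ABX). For ABX before extinction (1 gene) they were 2 without a filter, 15 in DESeq2 and 1 to 28 with a library left out, 28 being without pre-extinction ABX replicate 4 and 2 without replicate 3 of pre-extinction non-ABX. For the difference between the stage differences (0 genes) they were 4 in DESeq2 and 0 with any library left out.

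With the replicate block, 21 genes were called for the stage in ABX mice, 4 for ABX after extinction, 1 before and 0 for both others, and Pkp2 had 0.07 in non-ABX mice. Whether the numbers pair the libraries could not be told. Of 21 same-numbered pairs, 8 had a correlation of deviations above 0.1 (-0.49 to 0.37), and pairs with different numbers were not compared. Between post- and pre-extinction ABX libraries the correlations were 0.32, 0.04, -0.14 and 0.34 for replicates 1, 2, 3 and 4. With 3 or 4 libraries a group, small differences of Pkp2 in non-ABX mice are not resolved.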
